A study of Mus musculus with 8 samples.

Results

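The boundary of the Kcnj2 domain was examined in a pair of mouse mutants that carry it beside Sox9, BorKnockIn and InvC. They were 2 of the 8 capture Hi-C libraries analysed in the series, each 1 library of 1 genotype. They were chosen because their maps hold the boundary at the same deposited place, near 112.50 Mb of chromosome 11 (mm9), while the gene-free stretch to its left, called the desert here (111.41 to 112.49 Mb), runs in normal order in BorKnockIn and is inverted in InvC. The members compared were the bin pairs of the interval chr11:110920001-113030000, which holds 211 of the 587 bins of 10 kb in the map and 22366 of its 172578 bin pairs.

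All libraries came from micro-dissected fore- and hindlimb buds of homozygous mutant embryos at E12.5, made on the G4 embryonic stem cell background, with the buds of 3 to 8 embryos pooled per library. BorKnockIn is labelled as a boundary knock-in and InvC as an inversion. The same boundary-free orders were available in ∆BorC1 (normal order, labelled as lacking the boundary and also C1) and InvC∆Bor (inverted order, boundary deleted), and these served as the 2 comparison libraries. Wildtype limb buds were not analysed here. Contact maps hold no expression values, so the tissue label could not be set against marker genes.

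Mammalian chromosomes fold into topologically associating domains, stretches whose sequences meet each other more often than they meet sequences beyond the domain's edges. Edges often hold binding sites for CTCF, a zinc finger protein at which the loop-extruding cohesin complex halts, and the direction of the sites matters for which other sites they pair with. Sox9 encodes a transcription factor that cartilage formation depends on, and its distant enhancers lie in the desert. Kcnj2 encodes an inwardly rectifying potassium channel and sits at the far side of the boundary in normal chromosomes.

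The interval was divided at 112.50 Mb, called the divide below. Left of it lay the Kcnj2 side (110.92 to 111.41 Mb, 49 bins) and the desert (109 bins), and right of it the Sox9 side (53 bins, up to 113.03 Mb). The Kcnj2 bin was the first of the window. The Sox9 bin started at 112.64 Mb, and at 112.63 Mb in BorKnockIn, whose map is displaced there by about 1 bin. Values are raw contact counts unless the KR signal, the balanced value the authors deposited, is named. Observed over expected is the contact count divided by the mean of all bin pairs of that distance in the same library.

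The promoter of Kcnj2 is shown because Kcnj2 is a viewpoint whose desert contacts are compared below. The 250 bases upstream of its start on the plus strand are chr11:111065914-111066163 in GRCm38.p6 (RefSeq), a build other than that of the maps, in lower case with the GATC site cut by DpnII in capitals.
Kcnj2: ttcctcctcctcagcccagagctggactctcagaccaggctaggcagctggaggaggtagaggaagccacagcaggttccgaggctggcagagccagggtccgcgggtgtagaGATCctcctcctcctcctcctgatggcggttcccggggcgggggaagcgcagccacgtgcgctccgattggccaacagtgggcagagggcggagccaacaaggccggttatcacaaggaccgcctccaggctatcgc
It held 1 GATC, a site that 41.9% of 32851 promoter windows of this length held. DpnII cutting sets the fragments from which every contact was read.

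BorKnockIn held 5944448 contacts and InvC 4938928, and the comparison libraries 4901143 (∆BorC1) and 3056502 (InvC∆Bor), so the smallest map is the least precise. The window took 37.6% of all contacts in BorKnockIn and 35.8% in InvC. The bin at the divide held 28204 contacts in BorKnockIn and 21673 in InvC, against 152 in InvC∆Bor, and the original boundary bin at 111.39 Mb held 4 in ∆BorC1. With 1 library per genotype there is no test and no replicate check. Intervals are 95% and cover counting error only, and PCR copies are not independent molecules. The spread over positions at least 300 kb outside the window is given as a measure of how the 2 maps differ away from the edits, and it is not replicate error.

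Coverage per bin showed the order of the desert in each map. Over 106 desert bins, the coverage of BorKnockIn and InvC had a Pearson correlation of 0.046 by position and of 0.958 when InvC was mirrored. Against ∆BorC1, the desert of BorKnockIn correlated at 0.108 in place and at 0.917 with an offset of -18.5 kb, and right of the divide the best offset was -12 kb. Bins share capture probes and library depth, and these values only describe alignment. The desert therefore ran in opposite directions in the 2 mutants, with closely alike coverage once mirrored.

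The boundary separated its sides in both orders. Contacts across 112.50 Mb made up 15.2% of window contacts in BorKnockIn (interval 15.1 to 15.3%) and 13.0% in InvC (13.0 to 13.1%), against 24.4% in ∆BorC1 and 19.9% in InvC∆Bor. Within 400 kb of the divide on each side the shares were 15.4% in BorKnockIn and 15.3% in InvC, a ratio of InvC over BorKnockIn of 0.991 (0.979 to 1.00). Near the divide the mutants therefore differed by less than the same measure varied between them at 217 positions of the flanks, where it ran from 0.903 to 1.09. Over the whole window the ratio was 0.857 (0.852 to 0.863), over a longer span than the flank values.

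The boundary's effect in each order was read against the matching library without it. Within 400 kb, BorKnockIn held 0.530 of the share of ∆BorC1 (0.525 to 0.535) and InvC 0.566 of the share of InvC∆Bor (0.560 to 0.573). The ratio of these ratios was 1.07 (1.05 to 1.09), inside the flank range for a single ratio. ∆BorC1 also lacks C1, so the 2 references differ in more than the order of the desert.

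Distance separated the mutants. Between 20 and 100 kb, contacts across the divide stood at 0.414 of expectation in BorKnockIn and 0.502 in InvC. From 100 to 200 kb the values were 0.608 and 0.632. From 200 to 400 kb the order turned, with 0.666 in BorKnockIn and 0.566 in InvC. At 400 to 800 kb they were 1.03 and 0.811, at 800 to 1200 kb 1.60 and 1.18, and beyond that 1.68 and 1.36. InvC thus had the more contacts across the divide at short range and BorKnockIn at long range, and the KR signal turned at the same distance (0.495 and 0.463 from 200 to 400 kb). Without the boundary the normal order also held more long-range contacts across the divide, 2.23 times expectation in ∆BorC1 against 1.66 in InvC∆Bor at 800 to 1200 kb. At 20 to 100 kb the inverted order was the higher there too, with 1.45 in InvC∆Bor and 1.21 in ∆BorC1. From 100 to 200 kb it was the lower, with 1.34 and 1.42.

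**Figure D1:**
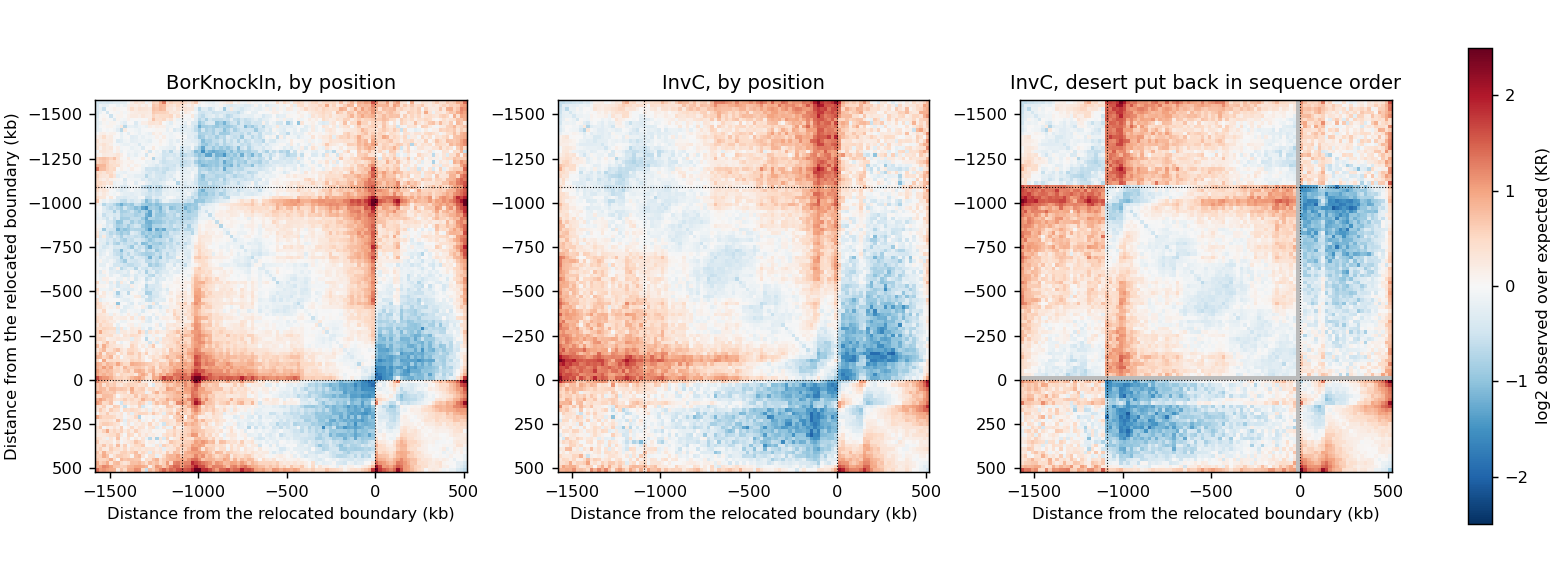
Contact maps of BorKnockIn, of InvC by deposited position, and of InvC with the desert put back in sequence order; both axes give kb from the relocated boundary and colour gives log2 of KR signal over expectation in 20 kb bins. Dotted lines mark the divide and the left end of the desert, grey marks bins without a match, and a reader should see a blue quadrant beside the divide in both mutants and a dark spot of BorKnockIn near -1010 kb that has no like at that place in InvC.

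Insulation was strong at the divide in both mutants. The insulation score is log2 of the mean KR contact between the 200 kb on either side of a bin over the mean of all bins, so a low value marks an edge. It was -1.30 in BorKnockIn and -1.18 in InvC at 112.50 Mb, and 0.04 in ∆BorC1 and 0.05 in InvC∆Bor. The difference of 0.12 lay within the flank, where the size of the difference had a median of 0.05 and reached 0.29 over 277 positions. The largest flank difference was 0.18 over 276 positions when the right flank was read 1 bin to the left in BorKnockIn. With raw counts the difference at the divide was 0.00067 and with a 400 kb window -0.08, so it had no settled sign.

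The shoulders of this edge were not alike. At 100 kb to the left the score was -0.23 in BorKnockIn and -0.64 in InvC, and 100 kb to the right it was -0.40 and -0.23. InvC therefore had a broad trough on the desert side of the divide, where BorKnockIn had recovered most of the way. At 100 kb to the left InvC∆Bor, without the boundary, was also low (-0.55), and ∆BorC1 stood at 0.02. This part of the trough holds the sequence of the inner dip described below. The right edge of the Sox9 domain was -1.32 in BorKnockIn (113.02 Mb) and -1.21 in InvC (113.03 Mb), the lowest minimum of the window in both. The bin of Sox9 itself stood at -0.57 in BorKnockIn and -0.38 in InvC, both above ∆BorC1 (-0.9963) and InvC∆Bor (-0.81). Kcnj2 stood at -0.43 in BorKnockIn and -0.66 in InvC, and a local minimum lay one bin to its right in both.

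A further dip inside the desert travelled with the sequence. After the divide and the right edge, the next lowest minimum of BorKnockIn lay at 111.49 Mb, with a score of -0.69. The same sequence in InvC lies at 112.39 Mb, beside the boundary, and scored -0.65 there. This place was not among the local minima of InvC. The divide lies 110 kb away, so the 200 kb windows there include contacts across the boundary, which the InvC score does not separate from the dip. At the position of the other mutant's dip the scores were -0.14 in InvC and -0.18 in BorKnockIn. The difference by position at 111.49 Mb was 0.55, beyond the largest flank difference, and the difference by sequence was 0.04. InvC∆Bor, in inverted order without the boundary, scored -0.60 at the same sequence, while ∆BorC1, which lacks C1, scored -0.08. This place is called the inner dip below, and it was picked from these profiles. At the original boundary site, 111.39 Mb, BorKnockIn scored -0.41 and InvC -0.21, a difference of 0.20. This lay within the flank read in place (up to 0.29). It lay beyond the flank with its right part read 1 bin to the left in BorKnockIn (up to 0.18). The difference was -0.02 with a 100 kb window and 0.41 with a 400 kb window, so it had no settled sign.

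**Figure D2:**
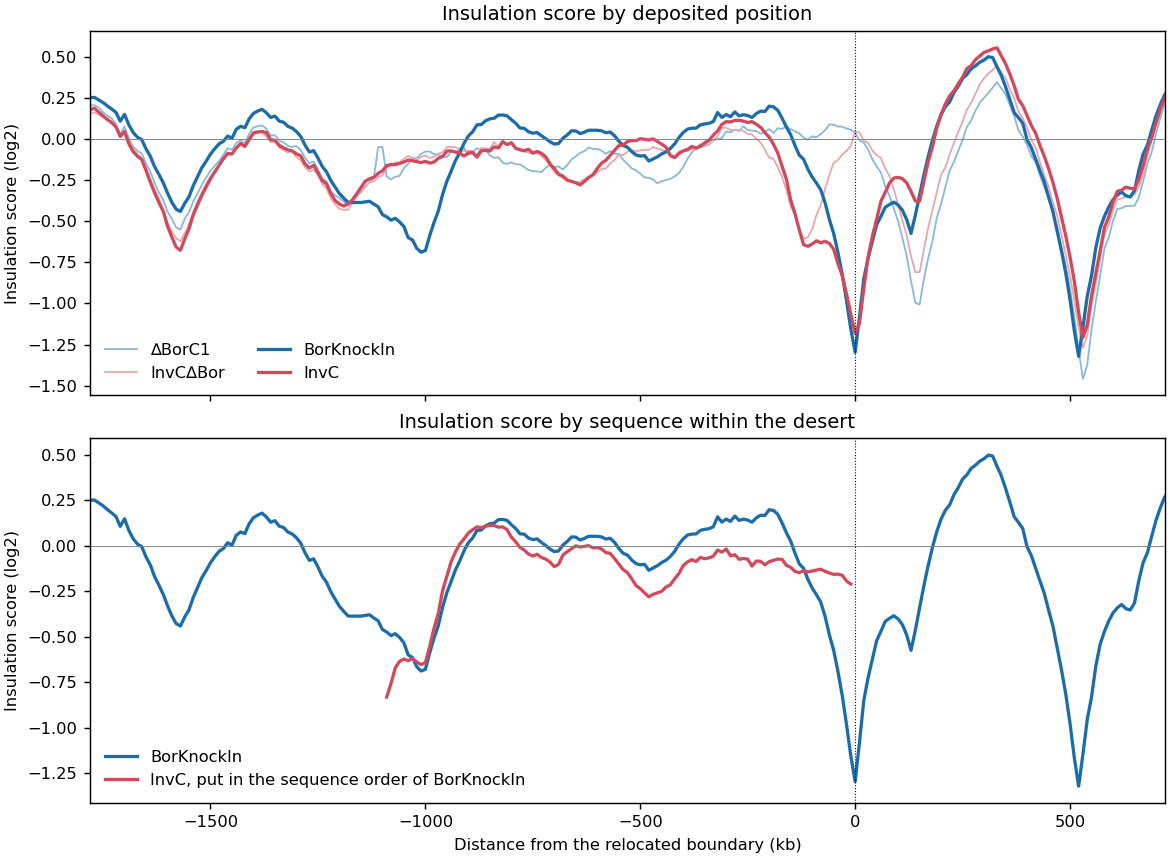
Insulation score (log2, KR, 200 kb window) against kb from the relocated boundary, with all 4 libraries by position above and BorKnockIn with InvC in sequence order of the desert below. Both mutants reach -1.30 and -1.18 at 0 kb where the libraries without the boundary lie near 0, and the inner dip of BorKnockIn meets that of InvC only in the lower panel.

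Across the desert the profile of insulation was more alike by sequence than by position. Pearson's correlation of BorKnockIn with InvC over 107 positions was 0.513 by position and 0.786 by sequence, and 0.331 and 0.704 over the 70 positions at least 200 kb from the desert's ends. Neighbouring positions share contacts, so these are descriptions.

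Contacts within the desert were also more alike by sequence, most clearly at short distance. Over 190 pairs of 50 kb blocks at least 100 kb apart, log2 KR observed over expected correlated at 0.776 by position and 0.912 by sequence. Between 100 and 300 kb (70 pairs) the correlations were 0.243 and 0.840, between 300 and 600 kb (75 pairs) 0.339 and 0.741, and beyond 600 kb (45 pairs) 0.691 and 0.757. At this longest distance the median size of the difference was 0.19 by position and 0.20 by sequence, so by that measure the match was no better by sequence. Pairs share blocks, depth and a common trend with distance. Of 171 block pairs within the desert that could be matched both ways, none was past 1.5-fold by sequence. The background over all pairs was 7.35% higher and 12.8% lower in InvC, and it includes the pairs of the desert with its sides. In the flanks the shares were 2.33% and 5.05%. Within the Kcnj2 side (28 pairs) and within the Sox9 side (45 pairs) none was past this limit either, so this was not particular to the desert. By position, as shares of the library, 10 of 210 were higher (background 17.0%) and 24 lower (background 4.01%). By position in observed over expected, 2 of the 171 were higher and 35 lower, against a background of 5.40% and 11.1%. The desert as a whole held 47.2% of window contacts in BorKnockIn and 42.1% in InvC, so the inner pattern was alike while its share was lower.

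**Figure D3:**
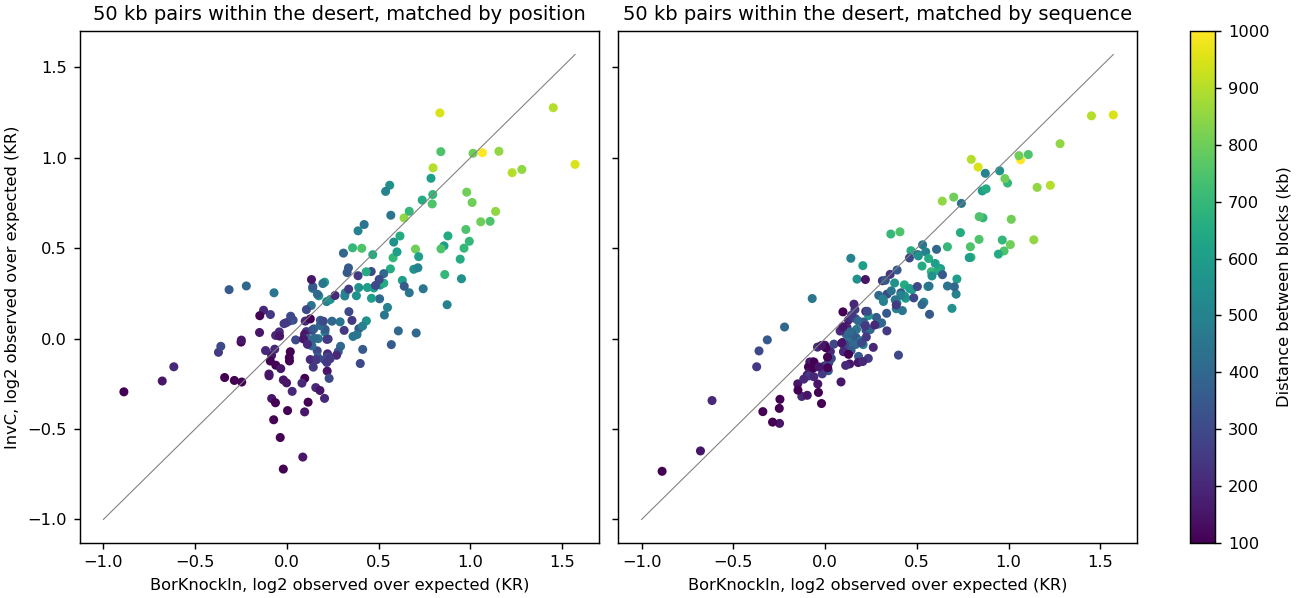
Each point is a pair of 50 kb desert blocks, with log2 KR observed over expected in BorKnockIn on the x axis and in InvC on the y axis, matched by position (left) or by sequence (right); colour is the distance in kb. The 190 points lie closer to the diagonal on the right, where the correlation is 0.912 against 0.776 on the left.

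Contacts of the desert with its neighbours differed in level between the mutants. The Kcnj2 side met the desert in 10.4% of window contacts in BorKnockIn and 15.8% in InvC, a ratio of 1.515 (1.505 to 1.525). In observed over expected this was 0.947 against 1.37. The reverse held on the other side: the desert met the Sox9 side in 12.6% of contacts in BorKnockIn and 10.3% in InvC, a ratio of 0.816 (0.810 to 0.822), or 1.09 against 0.849 times expectation. InvC thus had more desert contact for the Kcnj2 side and less for the Sox9 side.

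The remaining classes differed less. Contacts within the Sox9 side took 17.2% in BorKnockIn and 19.8% in InvC (ratio 1.16, and 1.05 with KR). Contacts within the Kcnj2 side took 9.99% and 9.25%. The Kcnj2 side met the Sox9 side in 2.61% and 2.76%, a ratio of 1.06 as a share that turned to 0.920 in observed over expected, so the direction of this class was not settled. In both mutants this class was lower than without the boundary, at 3.95% in ∆BorC1 and 3.97% in InvC∆Bor.

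Splitting the desert into 3 equal parts by position placed these differences. The left part met the Sox9 side at 1.93 times expectation in BorKnockIn and 1.28 in InvC, the middle part at 1.32 and 0.993, and the right part, next to the divide, at 0.724 and 0.642. With the Kcnj2 side the left part stood at 0.754 in BorKnockIn and 1.08 in InvC, the middle at 1.01 and 1.56, and the right part at 1.45 and 2.00. In both mutants contact with the Sox9 side, relative to expectation, was highest in the far part of the desert and lowest in the part beside the boundary. Without the boundary the part beside the divide was also the lowest, at 1.374 in ∆BorC1 and 1.137 in InvC∆Bor. The left and middle parts stood at 2.22 and 2.294 in ∆BorC1, and at 1.753 and 1.496 in InvC∆Bor. The rank of this part was therefore shared with the libraries without the boundary, but its level was not. It stood below expectation in both mutants and above it in ∆BorC1 and InvC∆Bor.

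By sequence, the same parts changed partners. The sequence that is leftmost in BorKnockIn had 2.65 times as much contact with the Kcnj2 side in InvC and 0.333 times as much with the Sox9 side, relative to expectation for its new distance. The sequence that is rightmost in BorKnockIn had 0.749 times as much with the Kcnj2 side and 1.77 times as much with the Sox9 side. Over 21 blocks of 50 kb, the KR profile of contact with the Sox9 side correlated between the mutants at 0.974 by position and -0.976 by sequence, and that with the Kcnj2 side at 0.912 and -0.816. Both profiles run steadily along the desert, so a mirrored profile must correlate negatively, and these values do not separate position from sequence. In the part of BorKnockIn next to the divide, the ratio of InvC over BorKnockIn for contact with the Kcnj2 side was about as far from 1 by sequence (0.749) as by position (1.38).

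A single block stood out in each profile. The block that starts at 111.47 Mb met the Sox9 side at 2.52 times expectation in BorKnockIn (KR), where its neighbours stood at 1.87 and 1.75. The same sequence in InvC met the Sox9 side at 0.481 and the Kcnj2 side at 2.84, again above its neighbours on the latter (2.56 and 2.00). This block holds the inner dip.

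**Figure D4:**
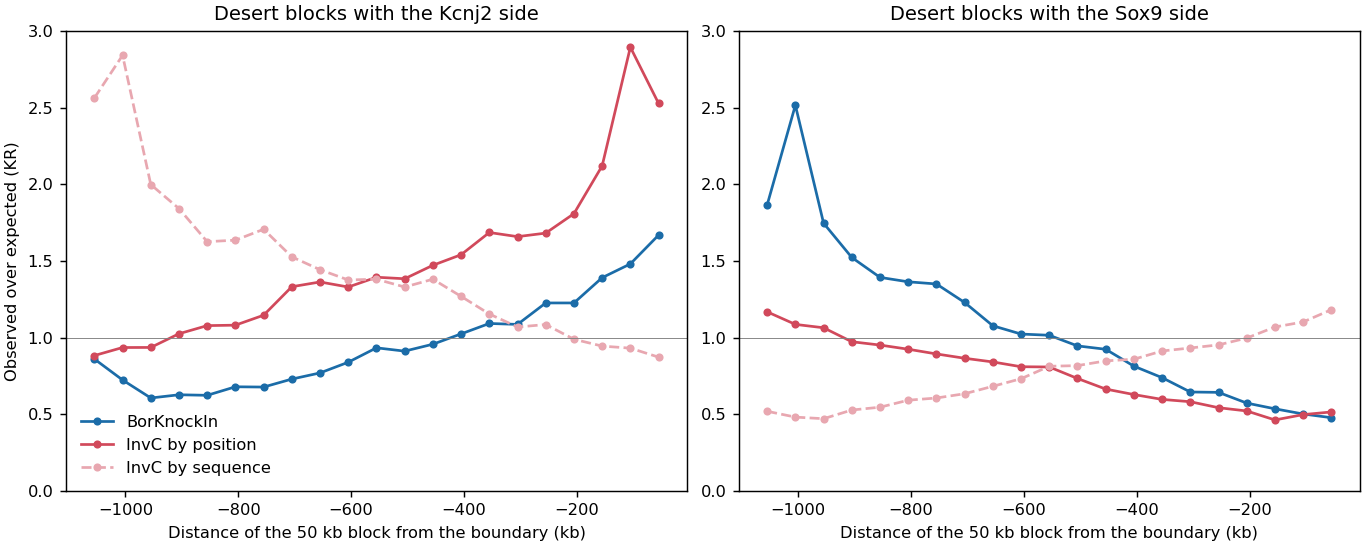
KR observed over expected of each 50 kb desert block with the Kcnj2 side (left) and the Sox9 side (right), against the block's distance in kb from the relocated boundary. BorKnockIn and InvC by position run the same way, InvC by sequence (dashed) runs the opposite way, and the peak of 2.52 in BorKnockIn on the right faces a peak of 2.84 in InvC by sequence on the left.

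Pairs of places also differed in partners between the 2 mutants. In blocks of 3 by 3 bins, the inner dip met the boundary 1010 kb away at 11.4 times expectation in BorKnockIn (10.9 to 11.9, 1765 contacts), and at 7.49 times with KR. In InvC these sequences lie 110 kb apart and met at 1.17 times expectation (1.10 to 1.24). The inner dip met the right edge of the Sox9 domain at 6.44 times expectation in BorKnockIn and 1.41 in InvC, and Sox9 at 5.29 and 0.746. With Kcnj2 the order was the opposite, 2.12 in BorKnockIn and 5.49 in InvC (5.03 to 5.98). InvC∆Bor held the contact of the inner dip with Kcnj2 at 5.71, so it was as high in the inverted order without the boundary. The low contacts of InvC on the other side were not seen there. In InvC∆Bor the inner dip met Sox9 at 2.28 and the right edge at 2.595, against 2.98 and 2.96 in ∆BorC1.

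The boundary itself reached different places on its left. It met Kcnj2 at 3.36 times expectation in BorKnockIn (2.98 to 3.77) and 5.65 in InvC (5.16 to 6.18), a ratio of 1.68 (1.45 to 1.95). The same place stood at 2.69 in ∆BorC1 and 1.79 in InvC∆Bor, where the bin at 112.50 Mb was left out, so every InvC∆Bor value for this place rests on its neighbouring bins. To its right the mutants were closer. The boundary met the right edge at 5.35 times expectation in BorKnockIn and 6.17 in InvC, a ratio of 1.15 that was 0.954 with KR. It met Sox9 at 2.36 and 2.62, against 1.05 in ∆BorC1 and 0.748 in InvC∆Bor. Both mutants therefore had a contact between the relocated boundary and the far edge of the Sox9 domain that stood at 1.08 in ∆BorC1 and at 0.879 in InvC∆Bor.

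Seen from the boundary (3 bins, 55935 contacts in BorKnockIn and 54805 in InvC), 56.8% of contacts fell to the left in BorKnockIn and 58.1% in InvC. This ratio of 1.02 was 0.982 with a 50 kb window and 1.29 with a 10 kb window, so it had no settled direction. What lay in the left share differed more. The left part of the desert took 12.8% of the boundary's contacts in BorKnockIn and 7.78% in InvC, and sequence left of Kcnj2 took 8.61% and 16.2%, a ratio of 1.88 (1.82 to 1.94). The Sox9 side took 31.8% and 32.1%. From the boundary, InvC thus showed more contact beyond Kcnj2 and less within the desert, and about the same toward Sox9.

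Right of the divide fell 62.6% of the contacts of Sox9 in BorKnockIn and 66.6% in InvC, against 38.8% in ∆BorC1 and 43.9% in InvC∆Bor. Of 47201 contacts of the Sox9 window in BorKnockIn, 49.6% fell on the Sox9 side and 24.8% in the desert. Of 44963 in InvC, 53.6% fell on the Sox9 side and 18.3% in the desert. Without the boundary the desert took 43.4% in ∆BorC1 and 34.0% in InvC∆Bor. The desert share of InvC was 0.736 of that of BorKnockIn (0.718 to 0.754). It was 0.859 with a single bin and 0.864 with the window of BorKnockIn left at the position used for InvC, so its size depends on the window.

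The desert contacts of Sox9 differed by place. The left part of the desert took 7.67% of Sox9 contacts in BorKnockIn and 4.46% in InvC, the middle 7.88% and 5.62%, and the part next to the divide 8.47% and 7.53%. The ratio of InvC to BorKnockIn was 0.581, 0.713 and 0.889 in this order, nearing 1 toward the boundary. Beyond Kcnj2, Sox9 had 7.86% of its contacts in BorKnockIn and 10.7% in InvC. Right of the domain's edge the shares were 13.0% and 13.1%.

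Kcnj2 met the desert more in InvC, and in both mutants it met the Sox9 side less than without the boundary. The Sox9 side took 4.54% of its contacts in BorKnockIn and 5.09% in InvC, a ratio of 1.12 (1.06 to 1.18). These shares were 0.562 of that in ∆BorC1 and 0.667 of that in InvC∆Bor. In observed over expected Kcnj2 met the Sox9 side at 2.09 in BorKnockIn and 2.01 in InvC. The direction between the 2 mutants was therefore not settled. Left of the divide fell 91.7% of the contacts of Kcnj2 in BorKnockIn and 91.9% in InvC, against 87.7% in both libraries without the boundary. The desert took 17.7% of Kcnj2 contacts in BorKnockIn (17.4 to 18.1%) and 27.6% in InvC (27.2 to 28.0%), a ratio of 1.56 (1.52 to 1.59). The ratio was 1.34 in the left, 1.71 in the middle and 1.73 in the right part of the desert. InvC∆Bor had 26.0% and ∆BorC1 21.7%, so the inverted order had the larger desert share with and without the boundary. The Kcnj2 side itself took 26.2% in BorKnockIn and 22.2% in InvC. Kcnj2 met Sox9 at 2.39 times expectation in BorKnockIn (2.05 to 2.77) and 2.26 in InvC (1.93 to 2.62), a ratio of 0.945 (0.764 to 1.17), against 4.66 in ∆BorC1 and 4.96 in InvC∆Bor.

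**Figure D5:**
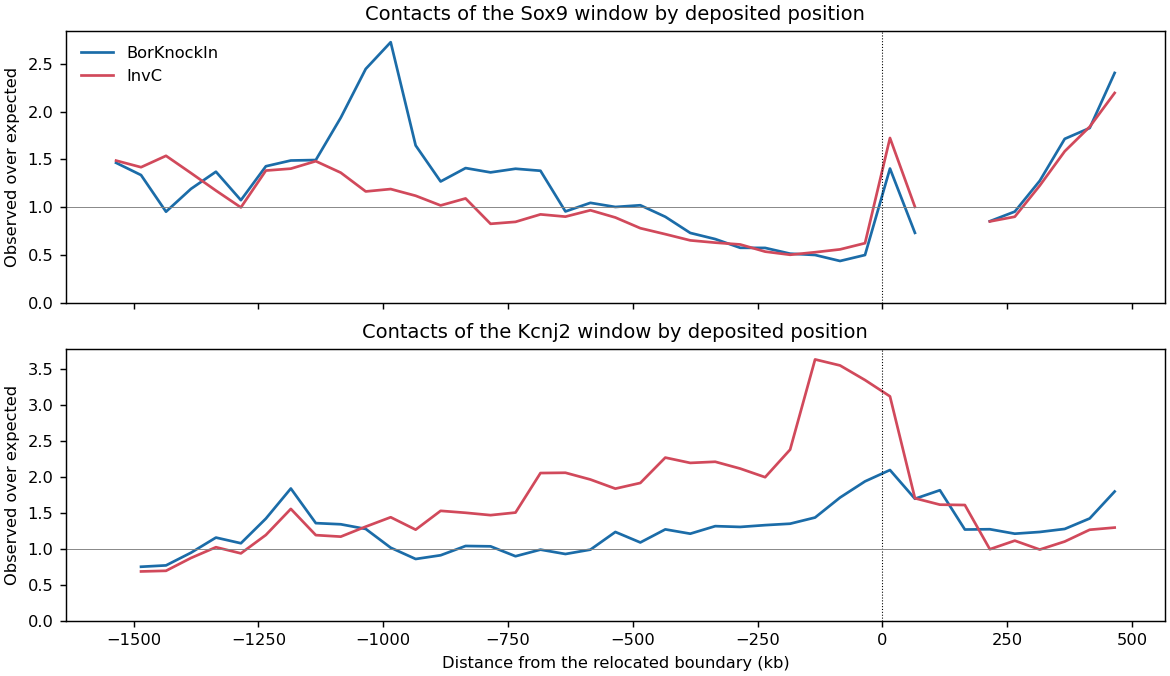
Contacts of the 30 kb windows at Sox9 (top) and Kcnj2 (bottom), as raw observed over expected in 50 kb steps, against kb from the relocated boundary. The Sox9 line of BorKnockIn peaks at 2.72 near -985 kb where InvC stands at 1.19. The Kcnj2 line of InvC stands above that of BorKnockIn over most of the desert. It reaches 3.64 near -135 kb, and stands at 3.35 near -35 kb.

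The largest single differences were then located among 50 kb pairs with at least 20 contacts. By position, 50 of 861 window pairs were over 2-fold higher in InvC as a share of the library, where the background over all 6514 pairs was 3.24%, and 6 were lower (background 0.537%). All 50 lay between the Kcnj2 side and the desert, of 219 such pairs. The shares had a median log2 difference of 0.18 in the flanks, which was -0.0021 in observed over expected. On the latter scale 20 of 743 pairs were higher (background 0.588%) and 12 lower (background 1.75%), and again the 20 lay between the Kcnj2 side and the desert.

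The 5 highest pairs by position all joined the Kcnj2 side or the Kcnj2 bin to the desert. The first joined the blocks at 110.90 and 112.35 Mb, with 502 contacts in BorKnockIn and 1326 in InvC (log2 ratio of shares 1.67). The second joined 111.05 and 111.75 Mb, with 320 and 696 contacts (1.39). The block at 111.75 Mb was a partner in 3 of the 5. The block at 112.35 Mb holds the inner dip sequence of InvC.

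The 5 lowest pairs by position fell in 2 places. Of these, 3 ended in the desert block at 112.40 Mb, the first with 112.30 Mb (4786 contacts in BorKnockIn and 1474 in InvC, log2 ratio -1.43). The other 2 joined the block at 111.45 Mb to 112.55 Mb (1157 and 452 contacts, -1.09) and to 112.50 Mb (1567 and 640 contacts, -1.03). In the first place the block at 112.40 Mb lies between the inner dip of InvC, at 112.39 Mb, and the divide. Its 3 partners lie left of that dip, so these pairs span it. The second place is the long-range contact of BorKnockIn between its inner dip and the boundary.

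By sequence, the largest differences were with the sides. Over 2-fold, 73 of 743 window pairs were higher in InvC (background 2.34%) and 66 lower (background 4.61%). Of the higher pairs 62 lay between the Kcnj2 side and the desert, and of the lower ones 65 between the desert and the Sox9 side. Within the desert there were 0 of 171, and at the 1.5-fold limit also 0. The same held for the 28 pairs within the Kcnj2 side and the 45 within the Sox9 side. The lowest pair joined the sequences at 111.45 and 112.50 Mb of BorKnockIn, with 1567 contacts there and 1068 in InvC, where they lie much closer together (log2 ratio of observed over expected -3.06). All 5 highest pairs joined the sequence at 111.50 Mb to blocks of the Kcnj2 side, with log2 ratios from 1.84 to 1.95.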

How the data were processed

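Raw contact counts per pair of 10 kb bins and the KR (Knight-Ruiz balanced) signal were used as deposited by the authors. Per the submitters' processing notes, Bowtie2 2.2.6, Juicer and the mm9 build were used; their settings and read filters are not given in those notes as used here. Depth per library stands in the report.

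Positions follow the deposited maps. By sequence, x in InvC was matched to 223.899 Mb minus x, and x in BorKnockIn to x plus 19 kb inside the desert. Bins under 0.1 of the library's median coverage and pairs under 20 kb apart were left out. Shares have exact Clopper-Pearson intervals, counts exact Poisson intervals and ratios log-normal intervals (95%). Insulation used 200 kb windows, viewpoints 30 kb, and pairs of places 3 by 3 bins. Pairs of 50 kb blocks needed 20 contacts. Pairs named were the 5 highest and 5 lowest with at least 100 contacts and 100 kb apart; places named were Sox9, Kcnj2, the boundary, its original site, the right edge and the 3 lowest insulation minima. The bins of Sox9 and Kcnj2 were set from general knowledge of mm9.

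With 1 library per genotype no test was made. Members, places and measures were chosen with earlier results of these data known. Other settings tried are in the closing section. Python 3.11.15, numpy 2.4.6, scipy 1.17.1 and matplotlib 3.10.9 were used, and the measures were tested on simulated maps.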

Additional observations from a re-analysis of the deposited data

Results flagged for a closer look

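Relative to the matching library without the boundary, the Kcnj2 side changed in opposite directions in the 2 orders. Its contact with the desert, in raw observed over expected, was 0.834 of ∆BorC1 in BorKnockIn and 1.04 of InvC∆Bor in InvC, and with KR 0.811 and 1.06. Its contact with itself was 1.04 of ∆BorC1 in BorKnockIn and 0.952 of InvC∆Bor in InvC, but with KR 1.04 and 1.01, so the opposite direction of the latter was seen only in raw counts. These differences were not tested, each value is 1 library over 1 library, and ∆BorC1 also lacks C1.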

How the results depend on the processing

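No paired analysis was possible because each genotype has 1 library. Of 96 alternative values, 6 turned direction. In 3 of them the main value's interval did not include equality: the boundary's share to the left with a 50 kb window (0.982), the share between the Kcnj2 and Sox9 sides in observed over expected (0.920), and the contact of the boundary with the right edge with KR (0.954). In the other 3 equality lay within the main value's interval or the flank spread read in place: insulation at the divide with a 400 kb window (-0.08), insulation at the original site with a 100 kb window (-0.02), and the contact of Kcnj2 with Sox9 with KR (1.14). For these and the values that follow, the cause was not tested. The ratio of contacts across the divide was 0.838 with KR, 0.844 from 100 kb, 0.991 within 400 kb, 0.844 with the divide 10 kb to the right, 0.810 as mean observed over expected and 0.867 with the right edge of BorKnockIn moved by 1 bin, an alternative added after the data were seen. The ratio of the Kcnj2 side with the desert was 1.45 as mean observed over expected. That of the desert with the Sox9 side was 0.795 with KR, 0.8004 from 100 kb and 0.781 as mean observed over expected. The Sox9 ratio was 0.859 with 1 bin, 0.797 with KR and 0.864 with the window not moved. The boundary's left share was 1.29 with 1 bin and 1.10 with KR, and its ratio for the left part of the desert 0.745 with 1 bin and 0.635 with 50 kb. The inner dip met the boundary in BorKnockIn at 7.65 times expectation in blocks of 5 by 5 bins and 7.49 with KR, and the ratio of Kcnj2 with the boundary was 1.37 in blocks of 5 by 5. With raw counts the gain in correlation by sequence within the desert was 0.524 in place of 0.136, and the gap by position for the Sox9 side 1.67 in place of 1.95. At 1.5-fold, 220 window pairs were called in place of 56. In all, 60 values stayed close to the main one, the 3 turns just named among them: within its interval, within the largest flank difference read in place for insulation, within 0.1 for a gap between correlations, or within 1.5 times for the count of pairs, which was 39 with KR. A further 33 lay outside without turning, 10 of them in classes or pairs not listed here. Thinning BorKnockIn to the depth of InvC moved no value outside. The main limits are 1 library per genotype, values that differ between raw counts and KR, and bins of 10 kb, which do not resolve the boundary's own sites.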

Other observations

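Sequence left of Kcnj2, outside the window, was met above expectation by the relocated boundary in both mutants, but its share of contacts did not rise in both. As a share of the boundary's contacts, BorKnockIn held 0.839 of ∆BorC1 (0.807 to 0.874). InvC held 1.185 of InvC∆Bor (1.129 to 1.245). The boundary met it at 1.79 times expectation in BorKnockIn and 3.101 in InvC, and the bins at that place met it at 1.498 in ∆BorC1 and 1.27 in InvC∆Bor. Of the Sox9 contacts right of the domain's edge, 0.732 of expectation was found in BorKnockIn and 0.748 in InvC, against 0.434 in ∆BorC1 and 0.537 in InvC∆Bor. Kcnj2 met sequence right of that edge at 1.08 times expectation in BorKnockIn and 0.743 in InvC, and at 1.08 and 1.05 in the libraries without the boundary. These are values of single libraries with no test.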
